A study of Mus musculus with 16 samples.

Results

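The carnitine shuttle was examined in mouse liver through 8 genes: Cpt1a, Cpt1b, Cpt1c, Cpt2, Slc25a20, Slc22a5, Crat and Crot. They were picked by exact gene symbol, with earlier results of these data known. All 8 occur among the 25803 genes of the deposited tables. Of these, 7 passed the filter on low counts and were tested with 14488 genes in all, and Cpt1b did not pass. Livers came from male mice on a high-fat diet (HFD) for 12 weeks, either controls (called WT in the design text) or mice with a liver knockout of Cpt1a (LKO). Each genotype was sampled after a 16 h fast, and again after that fast followed by 6 h of refeeding, which gave 4 groups of 4 libraries: fasted control, fasted LKO, refed control and refed LKO. Age, strain, the alleles of the control mice and the means of deletion are not given in the sources used here. Nothing in the labels says that the 4 libraries of a group came from separate mice, so the p-values measure the spread between these libraries.

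Long-chain fatty acids cannot cross the inner mitochondrial membrane as acyl-CoA. Carnitine palmitoyltransferase 1 on the outer membrane turns them into acylcarnitines, a carrier exchanges acylcarnitine for free carnitine across the inner membrane, and carnitine palmitoyltransferase 2 rebuilds acyl-CoA in the matrix. CPT1 is the step that malonyl-CoA inhibits, and in liver it is carried by the CPT1A isoform, while CPT1B is the isoform of muscle and brown fat and CPT1C is a brain isoform of the endoplasmic reticulum with little transferase activity. The enzymes CRAT for short acyl chains and CROT for medium chains, make acylcarnitines from further pools, CROT mainly in peroxisomes.

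The question put to these genes was whether another isoform or another carnitine enzyme is raised when Cpt1a is lost. Of the CPT1 paralogs Cpt1c was tested and not called, while Cpt1b did not pass the filter and so could not be called. Cpt1b had at most 4 counts in any library and Cpt1c at most 22, in knockout and control alike. The other 5 genes of the shuttle rose in the fasted comparison. In fasted LKO liver Slc22a5 was 2.45-fold, Crat 2.07-fold, Crot 1.89-fold, Slc25a20 1.42-fold and Cpt2 1.29-fold the control level by the fitted estimate, and all of these passed the test, as 12.2% of all genes did. In refed LKO liver none of those 5 genes passed, where 3.63% of all genes did. The difference between the feeding states was itself called for Crat alone, where 0.538% of all genes were called. Leaving out 1 library at a time ended that call in 10 of 16 fits. In LKO mice all 5 genes fell upon refeeding, where 18.1% of all genes were called.

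Upstream sequences are shown for Cpt1a and for the rising genes with a usable window, since Cpt1a is the deleted gene and the others rose together. They are the RefSeq windows of build GRCm38.p6, 5′ to 3′ on the strand of the gene. Each starts 250 bases before the annotated RefSeq start and stops before the first GENCODE M21 transcript start inside the window. Transcript starts that lie before the window were not considered, so a printed stretch may fall within an annotated gene. Cpt1a lies on the plus strand at chr19:3323051-3323284, Cpt2 on the minus strand at chr4:107923611-107923839, Slc25a20 on the plus strand at chr9:108661886-108662087 and Slc22a5 on the minus strand at chr11:53891704-53891953. Capitals mark the GC box GGGCGG and the nuclear receptor half-site AGGTCA, either as written or as their reverse complements CCGCCC and TGACCT.
Cpt1a: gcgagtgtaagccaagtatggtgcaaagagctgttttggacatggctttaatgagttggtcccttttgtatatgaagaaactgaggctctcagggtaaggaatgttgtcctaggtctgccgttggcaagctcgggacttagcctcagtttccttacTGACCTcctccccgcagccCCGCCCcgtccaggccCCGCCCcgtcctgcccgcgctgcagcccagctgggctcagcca
Cpt2: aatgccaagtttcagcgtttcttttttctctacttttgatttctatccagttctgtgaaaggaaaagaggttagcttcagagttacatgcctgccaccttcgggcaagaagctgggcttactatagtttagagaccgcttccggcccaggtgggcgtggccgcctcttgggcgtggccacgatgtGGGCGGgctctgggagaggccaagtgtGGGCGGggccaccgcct
Slc25a20: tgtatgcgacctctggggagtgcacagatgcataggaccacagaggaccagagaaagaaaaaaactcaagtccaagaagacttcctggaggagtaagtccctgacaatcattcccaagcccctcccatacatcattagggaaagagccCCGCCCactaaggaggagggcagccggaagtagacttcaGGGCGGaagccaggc
Slc22a5: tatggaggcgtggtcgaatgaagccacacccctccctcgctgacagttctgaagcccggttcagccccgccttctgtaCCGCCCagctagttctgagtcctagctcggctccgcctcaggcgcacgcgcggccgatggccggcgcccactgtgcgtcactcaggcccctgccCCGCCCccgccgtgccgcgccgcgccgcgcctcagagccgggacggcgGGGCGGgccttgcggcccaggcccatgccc

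Of the 8 genes, 6 had a RefSeq window of 250 bases. The other two were Cpt1b and Crat. A GC box on either strand was in 6 of these 6 windows, against 32.7% of 32851 windows of the same length over all RefSeq starts. The half-site was in 2 of the 6, Cpt1a and Cpt1c, against 14.0% of all windows. A direct repeat of the half-site with a spacer of 1 base (AGGTCANAGGTCA, the arrangement read by PPAR receptors, or the looser AGGNCANAGGNCA) was in 0 of the 6, against 0.0335% and 0.338% of all windows. GC content was 73.6% for Slc22a5, 69.6% for Crot, 59.6% for Cpt1a and 56.8% for both Cpt2 and Slc25a20, against a median of 52.4%. Cpt1c was the only one of the 6 below that median. Such matches describe letters in the window and are not sites of binding. The Crot window is not printed, since only its first 72 bases precede another annotated start, nor is that of Cpt1c, which was not called. A further GC box of Slc25a20 lies between its printed stretch and the RefSeq start.

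The libraries held 14721601 to 24618230 counts. Levels are given as CPM, counts scaled to library size with TMM factors, and, where genes are compared with each other, as CPM per kb of deposited gene length. A gene is called where the quasi-likelihood F-test of edgeR gave an adjusted p-value under 0.05 (Benjamini-Hochberg, over the 14488 genes), quoted as edgeR adjusted p. In a bulk sample fewer cells of a type and less RNA per cell cannot be told apart. The hepatocyte marker list (7 of its 8 genes in the tables) summed to 79041 to 87800 CPM in fasted control and 64942 to 74982 CPM in fasted LKO, so these groups did not overlap. Within that list Serpina1c and Ttr were called lower in fasted LKO and none was called in the refed state. The refed ranges were 76893 to 94093 CPM in control and 68372 to 79399 CPM in LKO. Lymphocyte markers summed to 3.54 to 7.20 CPM in fasted control and 14.2 to 33.3 CPM in fasted LKO, of which only Jchain was called, and to 3.66 to 5.24 and 16.7 to 38.7 CPM in the refed groups. White adipocyte markers summed to 46.6 to 132 CPM and 153 to 355 CPM in fasted control and LKO, with Cidec called higher and Cfd lower, and to 10.8 to 116 and 66.4 to 110 CPM in the refed groups, while Adipoq, Lep and Plin1 had group means of at most 0.170 CPM. The part of these shifts in the results below was not tested. The largest part of the hepatocyte sum was Alb, with fasted means of 48203 CPM in control and 39508 CPM in LKO. Its member Apoa1 went the other way, with a mean of 14275 CPM in fasted LKO against 11046 CPM in fasted control.

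The targeted gene came first. Cpt1a (ENSMUSG00000024900, chromosome 19, 3372334 to 3435733 coordinates as deposited, with mm39 named by the submitters) stood per kb at 61.0, 72.7, 71.6 and 49.4 CPM in the fasted controls. The fasted LKO libraries held 12.4, 11.3, 16.4 and 12.5 CPM per kb. Refed controls held 48.5, 41.8, 67.6 and 81.1 CPM per kb, and refed LKO libraries 5.22, 9.84, 7.84 and 5.49 CPM per kb. Every LKO library lay below every control library of its state. Counts cover the whole gene, and reads from the deleted part were not counted apart. The log2 fold change was −2.28 (SE 0.23, edgeR adjusted p = 1.4e-04) in the fast, with 20.7% of the control mean kept. After refeeding it was −3.08 (SE 0.24, edgeR adjusted p = 8.2e-06), with 11.9% kept. Within LKO mice Cpt1a fell by a further 0.89 on the log2 scale upon refeeding (SE 0.22, edgeR adjusted p = 0.0113), whereas in control mice the change was −0.09 (SE 0.22, edgeR adjusted p = 0.817). The genotype by feeding interaction, which tests that difference, was −0.80 (SE 0.31, edgeR adjusted p = 0.206) and missed the threshold.

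The paralogs come next. Cpt1b (ENSMUSG00000078937, chromosome 15, 89300608 to 89310066) is the CPT1 of muscle. Its raw counts were 1, 3, 0 and 2 in fasted control, 4, 2, 2 and 2 in fasted LKO, 1, 0, 0 and 2 in refed control and 3, 2, 1 and 1 in refed LKO. These groups overlap, and a difference was not detectable at this depth, where 3 counts correspond to 0.119 to 0.204 CPM depending on the library. Mean CPM differed by 0.0502 between fasted LKO and fasted control (exact permutation test, two-sided, p = 0.257) and by 0.0474 between refed LKO and refed control (exact permutation p = 0.343). Both adjusted p were 0.457 over the 4 group comparisons, and the smallest p that 4 against 4 libraries allow is 0.0286 before adjustment. A change confined to a single comparison could therefore not have passed 0.05 after adjustment, and the test cannot decide on such a change. The authors' deposited table gives Cpt1b an adjusted p of 1 in each comparison.

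Markers of the tissues where CPT1B dominates were measured beside it. Skeletal muscle markers summed to at most 2.09 CPM in any library (8 of 9 genes in the tables) and cardiac markers to at most 6.54 CPM (4 of 6). Brown adipocyte markers (4 of 5) summed to 123 to 200 CPM in fasted control, 108 to 237 CPM in fasted LKO, 60.7 to 410 CPM in refed control and 36.3 to 158 CPM in refed LKO, most of it Elovl3, a fatty acid elongase. Cidea, a lipid droplet protein of that list, had group means of 2.01 to 13.004 CPM, and Cox8b at most 0.155 CPM. Cox7a1 had group means of 0.773 to 1.17 CPM. Ucp1, the remaining gene of that list, was absent from the deposited genes. Their part in the Cpt1b counts was not tested.

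Cpt1c (ENSMUSG00000007783, chromosome 7, 44608796 to 44624275) was low but passed the filter. Fasted controls held 1.09, 0.817, 0.885 and 0.803 CPM and fasted LKO libraries 0.499, 0.622, 0.729 and 1.24 CPM. Refed controls held 0.575, 0.266, 0.239 and 0.679 CPM and refed LKO libraries 0.460, 0.719, 0.742 and 0.173 CPM. The genotypes overlap in both states, with log2 fold changes of −0.24 (SE 0.41, edgeR adjusted p = 0.764) fasted and 0.26 (SE 0.47, edgeR adjusted p = 0.823) refed. All 4 refed controls lay below all 4 fasted controls, as for 10.1% of all genes tested (10.4% lay above and 20.4% were apart in either direction), and this change of −1.09 (SE 0.44) did not pass (edgeR adjusted p = 0.104). Neuron markers (5 of 6 genes in the tables) summed to 7.97 to 9.54 CPM in fasted control and 4.41 to 5.88 CPM in fasted LKO. Most of that sum was Syt1, called lower, with means of 8.06 and 3.73 CPM. The fasted means of Rbfox3 and Tubb3 were higher in LKO, and those of Snap25 and Stmn2 lower. The refed ranges overlapped, at 4.36 to 6.92 CPM in control and 4.30 to 8.14 CPM in LKO. The part of these markers in the Cpt1c values was not tested.

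Set on one scale, the 3 CPT1 genes can be added. The difference of LKO minus control for Cpt1a was −50.5 CPM per kb fasted and −52.6 CPM per kb refed. The matching differences of Cpt1b were 0.0149 and 0.0141 CPM per kb, and those of Cpt1c −0.0225 and 0.0150 CPM per kb. The summed CPT1 level was therefore 20.9% of control in fasted LKO and 12.1% in refed LKO, close to what Cpt1a alone retained. Cpt1a still made up 98.0% to 99.0% of the sum in the fasted LKO libraries and 97.6% to 99.2% in the refed ones. The share of Cpt1b was 0.314% ± 0.114 in fasted LKO against 0.0423% ± 0.0363 in fasted control, and 0.425% ± 0.294 in refed LKO against 0.0221% ± 0.0259 in refed control (SD, n = 4). The share of Cpt1c was 1.05% ± 0.471 and 0.257% ± 0.0560 in fasted LKO and control, and 1.26% ± 0.492 and 0.134% ± 0.0622 in refed LKO and control (SD, n = 4). Over the same groups the summed level in the denominator went from 63.9 to 13.3 and from 59.8 to 7.22 CPM per kb.

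**Figure D1:**
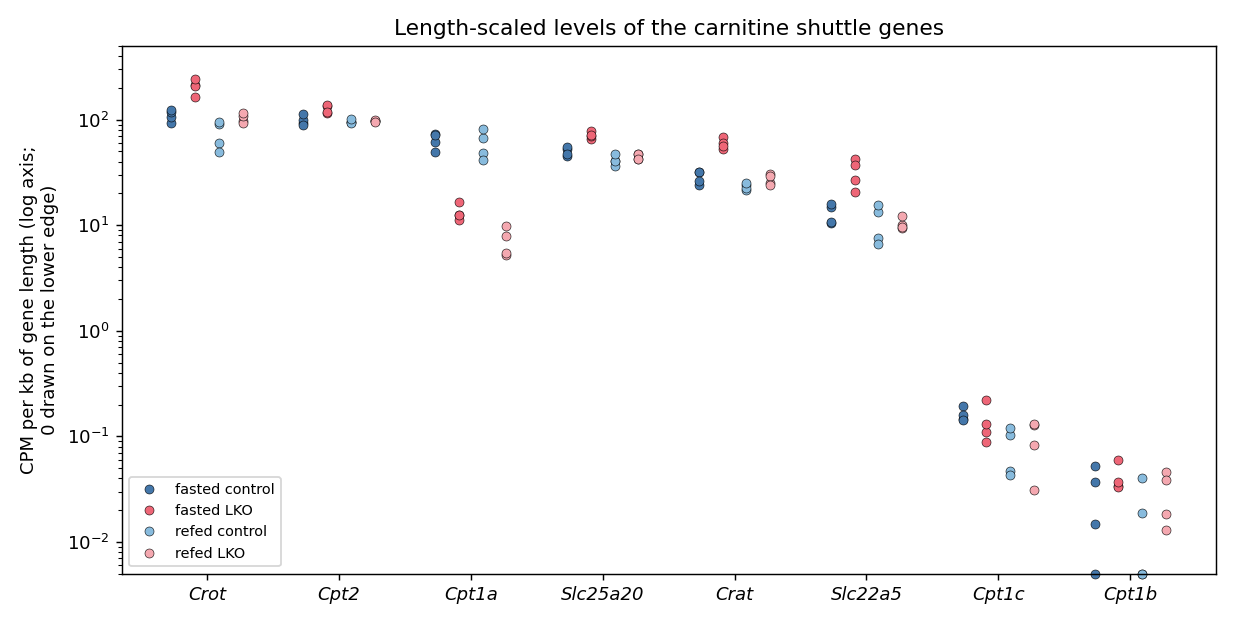
Level of each gene in every library as CPM per kb of gene length on a log axis, with each point a library and colour the group. The paralogs Cpt1c and Cpt1b lie at or below 0.222 CPM per kb in all 16 libraries, and Cpt1a at 5.22 CPM per kb or more even in LKO liver. Libraries with no Cpt1b count are drawn on the lower edge.

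After the fast, LKO was compared with control for the rest of the shuttle. Of the 7 genes tested, 5 rose and 1, Cpt1a, fell, while 12.2% of all genes were called, 5.75% higher and 6.48% lower. Each of the 5 had its lowest LKO library above its highest control library, which held for 8.3% of all genes tested. Cpt1a was apart in the other direction, as 8.57% of genes were, and 16.9% were apart in either. The median log2 fold change of the 7 was 0.51, against 0.02 over all genes.

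Slc22a5 (ENSMUSG00000018900, chromosome 11, 53755368 to 53782486) encodes OCTN2, the sodium-driven carrier that brings carnitine into the cell. Fasted controls held 32.6, 45.5, 48.5 and 33.2 CPM and fasted LKO libraries 131, 62.9, 115 and 81.7 CPM. All LKO libraries were above all controls. The log2 fold change was 1.29 (SE 0.26, edgeR adjusted p = 0.0044).

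Slc25a20 (ENSMUSG00000032602, chromosome 9, 108539287 to 108561840) encodes the carnitine-acylcarnitine translocase of the inner membrane. It stood at 219, 257, 265 and 229 CPM in fasted control and at 317, 378, 338 and 345 CPM in fasted LKO. The rise was even across the LKO libraries, with a log2 fold change of 0.51 (SE 0.09, edgeR adjusted p = 0.00247). Cpt2 (ENSMUSG00000028607, chromosome 4, 107761178 to 107780807), the matrix-side transferase, held 221, 237, 273 and 214 CPM in fasted control. Its fasted LKO libraries held 325, 275, 333 and 283 CPM. The lowest LKO library, S45, was just above the highest control, S42, and the log2 fold change of 0.36 (SE 0.09, edgeR adjusted p = 0.0132) was the smallest among the called genes. With only the 2 fasted groups in the fit Cpt2 was not called (edgeR adjusted p = 0.0654).

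Crat (ENSMUSG00000026853, chromosome 2, 30290483 to 30305825) encodes carnitine acetyltransferase, which exchanges acetyl and other short acyl groups between CoA and carnitine. Fasted controls held 129, 173, 174 and 140 CPM, and fasted LKO libraries 371, 282, 321 and 302 CPM. All LKO libraries were well clear of the controls, with a log2 fold change of 1.05 (SE 0.12, edgeR adjusted p = 2.3e-04). Crat overlaps the gene Dolpp1 on the opposite strand by 59 bases. The use of strand in counting is not given in the sources used here, and Dolpp1 had 328 to 565 counts per library against 1801 to 7429 for Crat.

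Crot (ENSMUSG00000003623, chromosome 5, 9016033 to 9047324) encodes carnitine octanoyltransferase, which exports medium chains from peroxisomes as acylcarnitines. It stood at 511, 573, 647 and 668 CPM in fasted control and 1163, 895, 1133 and 1330 CPM in fasted LKO. The log2 fold change was 0.91 (SE 0.18, edgeR adjusted p = 0.00403). In absolute terms this was the largest rise, 97.3 CPM per kb of gene length, against 30.6 for Crat, 28.3 for Cpt2, 21.1 for Slc25a20 and 18.8 for Slc22a5. A pseudogene inside Crot, Gm15610, had at most 10 counts.

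**Figure D2:**
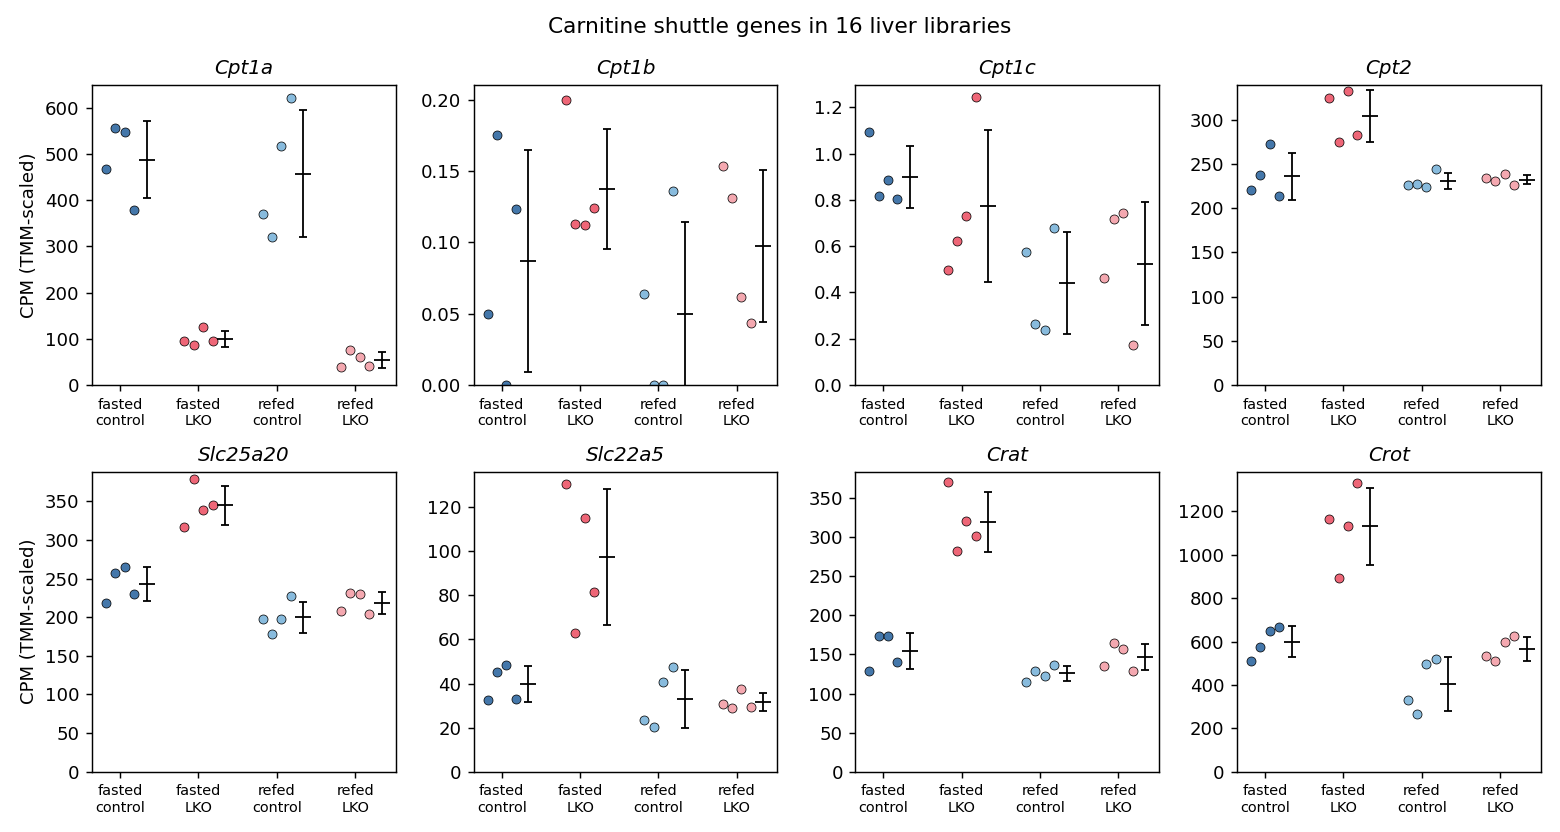
CPM of each of the 8 genes in every library (points), with the mean and SD of the 4 libraries of a group beside them (n = 4; the lower bar of Cpt1b is clipped at 0 in refed control). Slc22a5, Crat, Crot, Slc25a20 and Cpt2 are higher in all 4 fasted LKO libraries than in all 4 fasted controls, and the 2 refed groups overlap for each of them.

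The same comparison after refeeding gave another picture. Only Cpt1a was called among the 7 genes, and it fell, where 3.63% of all genes were called, 2.28% higher and 1.35% lower. Its groups alone were apart, as were those of 11.7% of all genes, 6.7% with LKO higher and 5.03% with LKO lower. Slc22a5 was at 23.3, 20.2, 40.8 and 47.7 CPM in refed control and at 30.7, 28.8, 37.6 and 29.5 CPM in refed LKO, within the range of its controls (log2 fold change −0.06, SE 0.26, edgeR adjusted p = 0.937). Cpt2 was nearly level, at 227, 227, 224 and 244 CPM against 235, 230, 239 and 226 CPM (0.01, SE 0.09, edgeR adjusted p = 0.965). The carrier Slc25a20 held 197, 178, 198 and 227 CPM in refed control and 207, 232, 229 and 205 CPM in refed LKO (0.13, SE 0.09, edgeR adjusted p = 0.507).

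The acyltransferases were somewhat higher without passing. Crat held 115, 129, 122 and 137 CPM in refed control and 135, 164, 157 and 129 CPM in refed LKO (0.22, SE 0.12, edgeR adjusted p = 0.340). Crot held 331, 268, 498 and 521 CPM against 533, 511, 596 and 627 CPM (0.49, SE 0.18, edgeR adjusted p = 0.151). The 2 groups overlap for Crot by 1 library on each side, S51 of the controls and S53 of the LKO libraries.

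The interaction sets the effects of LKO in both feeding states against each other. It was negative for 6 of the 7 genes, a smaller or more negative effect of LKO after refeeding, but only Crat passed, at −0.83 (SE 0.17, edgeR adjusted p = 0.0406), where 0.538% of all genes were called, 0.311% higher and 0.228% lower. Leaving out 1 library at a time ended that call in 10 of 16 fits (S40, S43, S44, S46, S48, S50, S51, S52, S54 or S55), with adjusted p of 0.0507 to 0.0847, and not in the other 6. Among the 7 genes Slc22a5 had the largest difference, −1.35 (SE 0.37, edgeR adjusted p = 0.0845), which missed the threshold. It passed with DESeq2 (adjusted p = 0.0143) and without S45 or S49 (0.0473 and 0.0388). Slc25a20 (−0.38, SE 0.13), Cpt2 (−0.35, SE 0.12) and Crot (−0.43, SE 0.25) had edgeR adjusted p of 0.158, 0.165 and 0.420. Cpt1c, at 0.50 (SE 0.62, edgeR adjusted p = 0.728), was the exception in sign.

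Refeeding was then followed within each genotype. These contrasts use the same libraries as the genotype comparisons and are not independent of them. In LKO mice 6 of the 7 genes fell and none rose, where 18.1% of all genes were called, 9.28% higher and 8.78% lower. Slc22a5 fell by 1.63 (SE 0.26, edgeR adjusted p = 5.6e-04), from 97.6 ± 30.8 to 31.6 ± 4.04 CPM (SD, n = 4). Crat fell by 1.12 (SE 0.12, edgeR adjusted p = 3.3e-05), from 319 ± 38.2 to 146 ± 16.8 CPM (SD, n = 4). Crot fell to 50.1% (edgeR adjusted p = 0.00134), from 1130 ± 179 to 567 ± 54.2 CPM (SD, n = 4). Slc25a20 and Cpt2 fell by 0.66 and 0.39 (SE 0.09 each, edgeR adjusted p = 2.2e-04 and 0.0059). For all 6 called genes every refed LKO library lay below every fasted LKO library, as for 9.95% of all genes tested, with 10.6% apart in the other direction and 20.6% in either.

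In control mice 1 gene was called, Crot, which fell by 0.57 (SE 0.18, edgeR adjusted p = 0.0432), where 15.4% of all genes were called, 7.79% higher and 7.65% lower. Its groups overlap, at 599 ± 71.7 and 405 ± 124 CPM (SD, n = 4). Leaving out 1 library at a time ended the call in 6 of 8 fits (S40, S41, S42, S43, S48 or S49), with adjusted p of 0.0535 to 0.124. Slc25a20 (−0.28, SE 0.09) was at the threshold (edgeR adjusted p = 0.0511) and passed without S40 or S51 (0.0499 and 0.0226). Crat (−0.29, SE 0.12), Slc22a5 (−0.28, SE 0.26) and Cpt2 (−0.04, SE 0.09) had edgeR adjusted p of 0.102, 0.510 and 0.822.

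Within the refed controls, S48 and S49 were lower than S50 and S51 for several genes at once. Cpt1a stood at 371 and 319 against 517 and 620 CPM, Crot at 331 and 268 against 498 and 521 CPM, and Slc22a5 at 23.3 and 20.2 against 40.8 and 47.7 CPM. Slc25a20 kept that order with little distance, at 197 and 178 against 198 and 227 CPM. Cpt2 showed no such division, at 227 and 227 against 224 and 244 CPM. Neither did Crat, at 115 and 129 against 122 and 137 CPM, nor Cpt1c, at 0.575 and 0.266 against 0.239 and 0.679 CPM. The division was seen in these values themselves, and its share over all genes was not counted. The labels name no batch, and no comparison was made between these libraries.

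**Figure D3:**
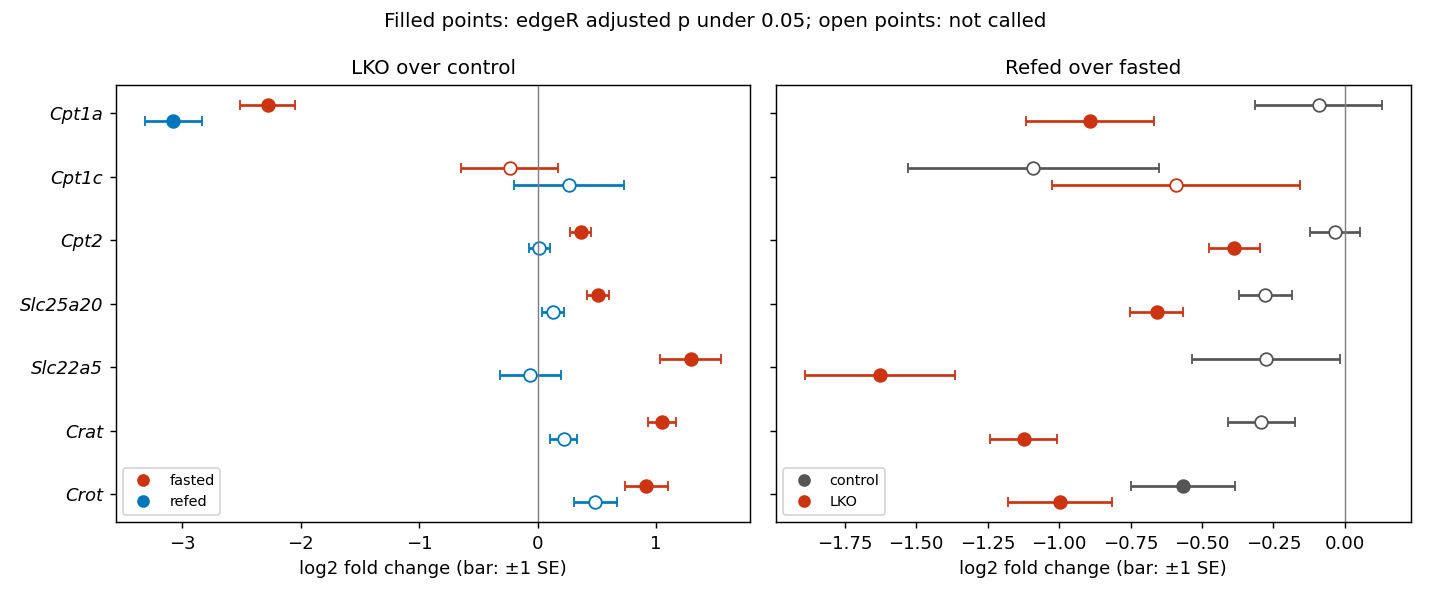
Log2 fold changes with 1 SE for the 7 genes tested, LKO over control in each state (left) and refed over fasted in each genotype (right). Filled points are called. On the left the fasted effects of the 5 genes other than Cpt1a and Cpt1c lie between 0.36 and 1.29, and their refed effects between −0.06 and 0.49.

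In the fast, the order of mean levels along the shuttle differed between genotypes only in the place of Cpt1a, the deleted gene. Per kb of gene length, fasted controls ranked Crot (110 ± 13.1), Cpt2 (98.8 ± 11.04), Cpt1a (63.7 ± 10.9), Slc25a20 (50.1 ± 4.58), Crat (28.6 ± 4.28) and Slc22a5 (13.004 ± 2.69 CPM per kb, SD, n = 4). Crot and Cpt2 overlapped in that order, as did Cpt1a and Slc25a20, and the other neighbours were apart. In fasted LKO the order was Crot (207 ± 32.8), Cpt2 (127 ± 12.3), Slc25a20 (71.1 ± 5.23), Crat (59.2 ± 7.09), Slc22a5 (31.8 ± 10.04) and then Cpt1a (13.2 ± 2.26 CPM per kb, SD, n = 4), with only Slc25a20 and Crat overlapping. Cpt1a thus moved from the third place to the sixth.

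In refed controls Cpt2 (96.4 ± 3.81), Crot (74.2 ± 22.8), Cpt1a (59.7 ± 17.9) and Slc25a20 (41.3 ± 4.16) each overlapped the next, above Crat (23.3 ± 1.72) and Slc22a5 (10.7 ± 4.34 CPM per kb, SD, n = 4). In refed LKO, Slc22a5 (10.3 ± 1.32) and Cpt1a (7.10 ± 2.18 CPM per kb, SD, n = 4) overlapped at the lower end, above the 2 paralogs. The ratio of Cpt1a to Cpt2, the outer to the inner transferase, was 0.643 ± 0.0745 in fasted control and 0.103 ± 0.0114 in fasted LKO. After refeeding it was 0.617 ± 0.169 and 0.0730 ± 0.0224 (SD, n = 4). Crot was 1.78 ± 0.474 times Cpt1a in fasted control and 16.0 ± 2.99 times in fasted LKO on the same scale (SD, n = 4). Cpt1a, the deleted gene, is a term of each of these ratios. How the deposited gene lengths were measured is not given in the sources used here, so these ratios hold for those lengths.

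Steps next to the shuttle were described by lists. These lists were chosen with earlier results of these data known. Their counts beside the share over all genes are therefore a description and no test. For carnitine itself, 4 of 7 listed genes of synthesis and further transport were tested. Aldh9a1, an enzyme of carnitine synthesis, rose in fasted LKO (0.28, SE 0.08, edgeR adjusted p = 0.0343). Bbox1, which makes carnitine in the last step, was at 157.5 ± 12.95 and 191 ± 21.3 CPM (SD, n = 4; 0.28, SE 0.09, edgeR adjusted p = 0.0540) in fasted control and LKO. Slc22a4, a transporter gene related to Slc22a5, fell from 4.32 ± 0.316 to 2.31 ± 0.916 CPM (SD, n = 4; −0.90, SE 0.22, edgeR adjusted p = 0.0142). In the refed state 0 of the 4 were called, where 3.63% of all genes were, against 12.2% in the fasted comparison. The list medians were 0.03 fasted and −0.06 refed.

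Of 10 genes that set malonyl-CoA, the inhibitor of CPT1, 1 was called in fasted LKO, Prkaa2 (0.26, SE 0.08, edgeR adjusted p = 0.0462), a catalytic subunit of AMPK, and 0 in refed LKO (list medians 0.08 and −0.01). Among all genes 12.2% were called in the fasted comparison and 3.63% in the refed comparison. Acacb, the acetyl-CoA carboxylase placed at the mitochondrial surface, was at 25.8 ± 3.25 and 49.8 ± 22.3 CPM (SD, n = 4) in fasted control and LKO and did not pass (0.95, SE 0.33, edgeR adjusted p = 0.0680). Of 11 genes tested that supply acyl-CoA at the outer membrane, 5 rose in fasted LKO and 1, Slc27a5, fell (list median 0.44, and 0.22 refed). Acsl1, the main long-chain acyl-CoA synthetase of liver, rose by 0.73 (SE 0.17, edgeR adjusted p = 0.0126), and Acsl5 by 0.83 (SE 0.10, edgeR adjusted p = 2.4e-04). In the refed state 1 of the 11 rose, Dbi (0.60, SE 0.10, edgeR adjusted p = 0.00384), an acyl-CoA binding protein. The share of all genes called higher was 5.75% fasted and 2.28% refed.

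Downstream of CPT2, 8 of 15 genes of matrix beta-oxidation rose in fasted LKO (list median 0.35) and 6 of 15 in refed LKO (median 0.27), with 0 lower in either state. Over all genes 5.75% were called higher fasted and 2.28% refed. Hadhb rose by 0.99 fasted and 0.78 refed (SE 0.13 each), and Acadm by 0.75 and 0.61 (SE 0.11 each), with edgeR adjusted p of at most 0.0048. Of 12 peroxisomal genes, 6 rose in fasted LKO (median 0.55) and 5 in refed LKO (median 0.42), again with 0 lower and against the same shares over all genes. Ehhadh, an enzyme of peroxisomal beta-oxidation, was far above the rest of the list and varied widely between fasted LKO libraries (375 ± 44.4 and 2939 ± 1947 CPM in fasted control and LKO, SD, n = 4), at 2.97 (SE 0.41, edgeR adjusted p = 3.9e-04) fasted and 2.42 (SE 0.40, edgeR adjusted p = 0.00376) refed. In the interaction 0 genes of either list passed, where 0.538% of all genes did, and the medians were −0.05 and −0.01. For the 7 shuttle genes that median was −0.43 with 1 called, and over all genes −0.01. Whether the lists differ from the shuttle genes in this was not tested.

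The PPAR receptors and their partners, nuclear receptors and cofactors of fatty acid oxidation genes, had 0 of 8 called higher in fasted LKO and 1 lower, Esrra (−0.27, SE 0.08, edgeR adjusted p = 0.0377), and 0 of 8 in refed LKO (list medians −0.23 and −0.16). Again 12.2% of all genes were called in the fasted comparison and 3.63% in the refed comparison. Ppara itself was at 46.9 ± 11.3 CPM in fasted control and 63.9 ± 16.2 CPM in fasted LKO (SD, n = 4; 0.45, SE 0.20, edgeR adjusted p = 0.161).

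**Figure D4:**
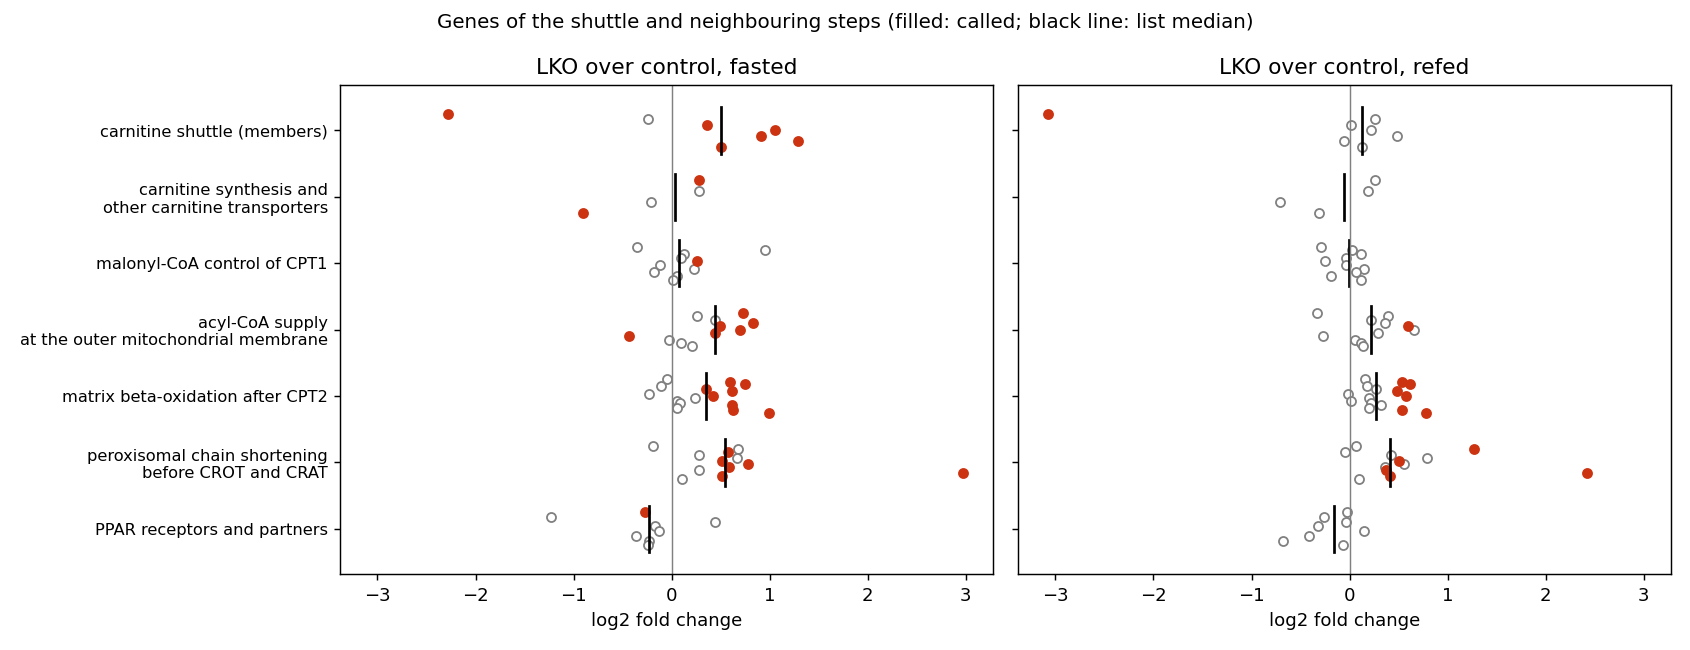
Log2 fold changes of LKO over control for the shuttle genes and for 6 lists of neighbouring steps, in the fasted (left) and refed (right) state, with filled points called and a black line at the list median. The medians of matrix beta-oxidation are 0.35 and 0.27, and those of the shuttle genes 0.51 and 0.13.

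Genes with the most similar pattern were found for each shuttle gene by Pearson's r of log2 CPM over the 16 libraries, among 8888 candidate genes. The libraries share groups, so r reflects the group differences, and it is given without a test. Cpt1a was followed most closely by Mlxipl (r = 0.92), Slc1a2 (0.92) and Lipc (0.90), all lower in LKO means of both states. Mlxipl, the carbohydrate-response factor ChREBP, had means of 254 and 173 CPM in fasted control and LKO. The closest to Slc22a5 were Tlcd4 (0.98), Tdrp (0.96) and Tgoln1 (0.96), and to Crat Rtf2 (0.98), Ppp2r2d (0.95) and Acot1 (0.94). For Crot they were Slc35f5, Tgoln1 and Plin2 (all 0.96). Plin2, a lipid droplet coat protein, had means of 976, 2544, 662 and 855 CPM in fasted control, fasted LKO, refed control and refed LKO. Slc25a20 was matched by Tdrp (0.95), Ppp2r2d (0.93) and Acot12 (0.93), and Cpt2 by Tmem135 (0.94), Acot1 (0.93) and Prrc1 (0.92). For Cpt1c they were Zer1 (0.86), Lrrc14 (0.85) and Dnal4 (0.83), at counts too low to rest much on. Acot1 has near-identical copies in its cluster, so its counts are uncertain. Of the 3 genes each, Tdrp recurs for Slc22a5 and Slc25a20, Tgoln1 for Slc22a5 and Crot, Ppp2r2d for Crat and Slc25a20, and Acot1 for Crat and Cpt2.

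The authors' deposited tables were set beside these values. For fasted LKO over fasted control they give log2 fold changes of −2.28 for Cpt1a, 1.28 for Slc22a5, 1.04 for Crat, 0.91 for Crot, 0.50 for Slc25a20 and 0.36 for Cpt2, each with an adjusted p in the authors' deposited table of at most 0.0253. For refed LKO over refed control the authors' deposited table has only Cpt1a of the 8 genes under 0.05.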

How the data were processed

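Poly-A RNA of liver was sequenced in 16 libraries, 4 per group. Per the labels' protocols, libraries used random hexamers and dUTP. HISAT2 2.0.5 and mm39 are named per the submitters' processing notes, without a role. The counting tool, its use of strand and the annotation are not given in the sources used here. The authors deposited 4 tables, each comparing 2 groups, with raw read counts per gene for 8 libraries. A further 64 per-library columns of other units were not used. Gene lengths, log2 fold changes and adjusted p-values are the authors', per the file headers, which name no tool. The sign of those fold changes was turned so that LKO or refed is the numerator.

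Columns S40 to S55 carry no replicate number. Each library is in 2 tables, and its group is the one named in the headers of both. By this rule the fasted libraries are S40 to S43 (control) and S44 to S47 (LKO). The refed ones are S48 to S51 (control) and S52 to S55 (LKO). Values of a group are listed in that order. Joining on gene identifier gave 25803 genes, with 0 counts differing between tables. Genes absent from both tables of a library were set to 0 (3148 genes). Analysis used R 4.3.3, edgeR 4.0.16, limma 3.58.1, DESeq2 1.42.0 and Python 3.11.15. Genes passing filterByExpr were scaled by TMM (factors 0.941 to 1.07) and fitted by glmQLFit with 4 groups, 12 residual degrees of freedom and no covariate. SE is the absolute log2 fold change over the square root of F. The model was tested on simulated data. The floor of 3 counts covers counting error only.

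Named genes are the 8 shuttle genes, members of the fixed lists, genes overlapping a shuttle gene, and per shuttle gene the 3 with the highest r among protein-coding genes at a mean of at least 5 CPM, predicted genes passed over. The genes and lists were chosen with earlier results of these data known. Sequences are from RefSeq tables of GRCm38.p6. Marker lists of Kupffer cell, sinusoidal endothelium, stellate cell and cholangiocyte are not described above. These lists and the brown adipocyte list overlapped between genotypes in both states, with Dcn called higher in fasted LKO and Clec4g in refed LKO. Alternatives were other tools (DESeq2, limma-voom), scalings, filters, fewer groups, a 1.2-fold threshold (glmTreat) and leaving out each library.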

Additional observations from a re-analysis of the deposited data

Results flagged for a closer look

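Of 32 sets of 4 libraries, 2 had a highest value far from the rest. For Cpt1b in fasted LKO this was S44 with 0.1997 CPM, from 4 counts where the others had 2 each. For Cpt2 in refed control it was S51 with 243.8 CPM, while S48, S49 and S50 held 224 to 227 CPM. Chance alone flags about 1 in 20 such sets, so 2 of 32 is near that number. The effect of LKO on Crat differed between the feeding states by −0.83 on the log2 scale (edgeR adjusted p = 0.0406), with higher values in fasted LKO and overlapping groups after refeeding. That call was lost in 10 of 16 fits that left out 1 library.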

How the results depend on the processing

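No paired analysis was possible because the count columns carry no replicate number. In the fasted comparison of genotypes the rises of Slc22a5, Crat and Crot held in all 16 alternatives. Slc25a20 and Cpt2 missed with a 1.2-fold threshold (adjusted p 0.0508 and 0.345), and Cpt2 with the compared groups only (0.0654). The number of shuttle genes called there ran from 4 to 6. In the refed comparison it was 1 in every alternative, and for refeeding in LKO 5 to 6. For refeeding in control it was 1 in the report, 2 with DESeq2, limma-voom, upper quartile scaling, DESeq2 size factors or a mean of at least 5 CPM, 0 with a 1.2-fold threshold or the compared groups only, and 0 to 2 when 1 library was left out. For the interaction it was 1 in the report, 2 with DESeq2, 0 with a 1.2-fold threshold and 0 to 2 when 1 library was left out. The cause was not tested. Without division by length the share of Cpt1b in fasted LKO was 0.139% and that of Cpt1c in fasted control 0.188%. Changes of sign occurred only near 0: Cpt2 in the refed comparison was −0.0014 without S50 and −2.1e-05 without S54 (0.0404 at the highest), Slc22a5 there was 0.0212 with limma-voom, 0.06 without S50 and 0.16 without S51 (−0.236 at the lowest), and for refeeding in control Cpt1a was 0.0449 without S49 (−0.274 at the lowest) and Cpt2 0.0401 without S42 (−0.0807 at the lowest). Over single genes, 561 of the alternative values kept direction and side of the threshold, 23 lost a call, 10 gained one and 7 changed sign. Over all genes, the genes called in fasted LKO numbered 1772, 566 with the 1.2-fold threshold and 1048 without S44. In refed LKO they numbered 526, 924 with DESeq2, 152 with the threshold and as few as 197 without S48. For refeeding they numbered 2238 in control (427 with the threshold, 1220 without S40, 1365 without S50) and 2616 in LKO (1078 with the threshold). The interaction called 78, 467 with DESeq2, 195 at a mean of at least 5 CPM, 4 with the threshold, 8 without S48 and 282 without S49.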
